A study of Mus musculus with 14 samples.

Results

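Kidney transcripts of the collagen gene family were examined in 14 male C57BL/6J mice. The family was taken as every gene whose symbol reads Col, a number, a, and a number, which gave 44 of the 21878 genes in the files. Of these, 34 reached 0.1 FPKM (fragments per kilobase of transcript and per unit of sequencing depth) in at least 3 mice and were tested among 14912 genes. They comprised 9 of 11 fibrillar collagens, all 6 basement membrane collagens (the chains of type IV), and 19 of 27 other collagens. The 10 that did not pass were *Col2a1*, *Col6a4*, *Col9a1*, *Col9a2*, *Col10a1*, *Col11a1*, *Col17a1*, *Col22a1*, *Col25a1*, and *Col28a1*, and none of them exceeded 0.195 FPKM in any mouse. *Col6a5* and *Col9a3*, just inside the filter, reached 0.1 FPKM in 5 mice, and *Col10a1*, *Col17a1*, *Col28a1*, and *Col6a4*, just outside it, in 1 mouse. By mean level over all mice, 8 collagens were at 10 FPKM or more (in falling order *Col4a1*, *Col4a2*, *Col18a1*, *Col4a3*, *Col1a2*, *Col4a4*, *Col3a1*, and *Col1a1*), 12 were at 1 to 10 FPKM, and 24 were under 1 FPKM.

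The mice were 3 WT control, 4 WT diabetic, 3 *Cfb-/-* control, and 4 *Cfb-/-* diabetic mice. *Cfb* encodes complement factor B, a serine protease of the alternative pathway of complement, and the deletion was present in the whole animal. Diabetic mice were given a high-fat diet (HFD) with 60% of calories from fat for 4 weeks and then streptozotocin (STZ), which destroys insulin-producing beta cells, at 60 mg/kg on 5 days in 50 mM sodium citrate. Control mice were given chow with 10% of calories from fat and the citrate buffer alone. The diet and STZ were given to the same mice, so effects of diet, of STZ, and of diabetes cannot be told apart. The labels give a time of 34 weeks for all mice without stating its start, describe control mice with the treatment entry of diabetic mice, and call the deletion a knockdown. Groups were therefore read from the sample titles. *Cfb* itself was 1.13 to 2.22 FPKM in *Cfb-/-* mice and 56.7 to 131 FPKM in WT mice, without overlap. Tubule markers were abundant in every kidney, with the androgen-regulated proximal tubule gene *Kap* at 39707 to 67836 FPKM in control mice and 6671 to 16015 FPKM in diabetic mice. The deposited files hold no read counts, and relative depth, estimated from the steps between low values, was 0.839 to 1 times that of the first *Cfb-/-* diabetic mouse. WT control mouse 2 had the highest sum of FPKM of all mice. Sums were 390374 to 488196 in WT control mice and 330246 to 394445 in diabetic and *Cfb-/-* control mice. Mouse 2 had the lowest value of the WT control mice in 27 of the 34 collagens, and mouse 3 had the highest in 27.

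Collagens are assembled from chains that wind around each other, and each chain is the product of a separate gene. Fibrillar collagens (types I, III, and V in most tissues) form the banded fibrils of interstitial scar, and fibril-associated collagens decorate the surface of those fibrils. Type IV collagens form the sheet-like network of basement membranes, where the α1 and α2 chains are found around tubules and in the mesangium, while the mature glomerular basement membrane is built by podocytes from α3, α4, and α5 chains.

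Most collagens were higher in diabetic mice, in both genotypes. With limma and a threshold of 0.05 after Benjamini-Hochberg adjustment, 21 of 34 collagens were higher and 3 were lower in WT diabetic than in WT control mice, against 36.2% of all genes tested that were higher and 9.97% that were lower. Among *Cfb-/-* mice 20 were higher and 3 were lower, against 27.4% and 6.4% of all genes. The median log2 fold change of the collagens was 1.02 in WT mice, against 0.29 over all genes tested, and 1.0 in *Cfb-/-* mice, against 0.22. Criteria of the study, used there with DESeq2, were applied to the limma values (unadjusted P under 0.05, fold change over 2 or under 0.5). With them, 19 collagens were higher and 2 lower in WT mice, against 15.6% and 1.82% of all genes. In *Cfb-/-* mice 17 were higher and 2 lower, against 13.3% and 1.66%. The groups did not overlap, with diabetic mice higher, for 20 collagens in WT mice (35.5% of all genes) and 21 in *Cfb-/-* mice (33.6%), and with diabetic mice lower for 3 in each (9.84% and 8.64%). Because 7 collagens passed the filter through 1 side only (*Col8a2*, *Col11a2*, *Col24a1*, *Col6a5*, and *Col9a3* with fewer than 3 control mice at 0.1 FPKM, *Col6a6* and *Col19a1* with fewer than 3 diabetic mice), the counts were also taken over the other 27. Of these, 20 were higher and 1 lower in WT mice, and 17 were higher and 1 lower in *Cfb-/-* mice. Among the 13737 genes that reached 0.1 FPKM in at least 3 diabetic and 3 control mice, 35.1% were higher and 10.6% lower in WT mice, and 26.4% and 6.78% in *Cfb-/-* mice. With no filter, all 44 collagens among 18011 genes, the counts were 21 higher and 3 lower in WT mice (29.7% and 8.02% of all genes) and 19 higher and 3 lower in *Cfb-/-* mice (22.8% and 5.16%). Scaling each mouse by the median ratio over genes moved the median of all genes to 0.03 in WT and -0.01 in *Cfb-/-* mice, and higher genes from 78.4% to 50.3% and from 81.0% to 56.8% of all calls, whereas the collagen counts were 19 higher and 4 lower in WT (22.7% and 22.4% of all genes) and 19 higher and 3 lower in *Cfb-/-* mice (18.5% and 14.1%). After quantile normalization they were 17 higher and 4 lower in WT (15.9% and 20.1% of all genes) and 14 higher and 4 lower in *Cfb-/-* mice (14.4% and 14.9%). In bulk tissue, a change in the number of cells that transcribe a gene and a change in RNA per cell cannot be told apart.

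The comparisons in WT and in *Cfb-/-* mice have no mouse in common. They share the filter and, for each gene, the estimate of spread from the same fit of all mice. Their calls are therefore not independent. The WT call of *Col5a3* was lost without certain *Cfb-/-* mice, and the *Cfb-/-* call of *Col16a1* without certain WT mice. In both comparisons, the same 18 collagens were higher (52.9% of those tested, against 22.7% of all genes). The same 2 were lower (5.88%, against 4.76%), and 0 were called in opposite directions. Those higher in both were *Col1a1*, *Col1a2*, *Col3a1*, *Col4a1*, *Col4a2*, *Col5a1*, *Col5a2*, *Col5a3*, *Col6a1*, *Col6a2*, *Col6a3*, *Col8a1*, *Col8a2*, *Col12a1*, *Col14a1*, *Col15a1*, *Col16a1*, and *Col18a1*, and those lower in both were *Col6a6* and *Col19a1*. Both of the latter had passed the filter through control mice, where they are high, and *Col8a2* through diabetic mice. Over the other 27 collagens, 17 were higher in both (63.0%, against 21.9% of all genes taken in the same way) and 0 were lower in both (5.05%). *Col23a1*, *Col26a1*, *Col4a5*, and *Col4a6* were called in WT mice alone, and *Col11a2*, *Col4a4*, and *Col6a5* in *Cfb-/-* mice alone. The remaining 7 (*Col13a1*, *Col20a1*, *Col24a1*, *Col27a1*, *Col4a3*, *Col7a1*, and *Col9a3*) were called in neither.

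**Figure D1:**
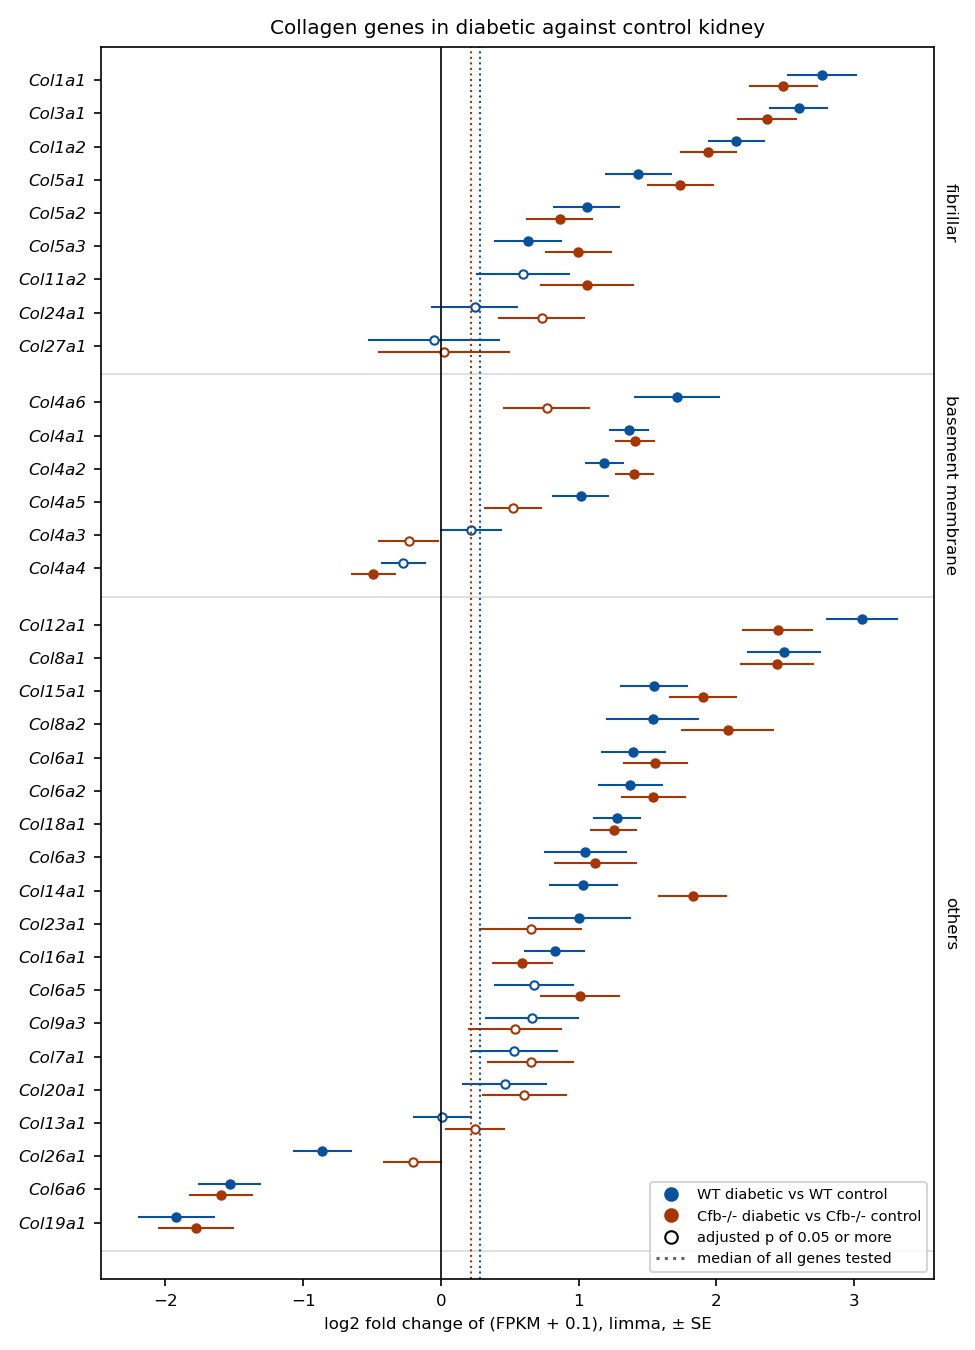
Log2 fold change (with SE, limma on FPKM + 0.1) of the 34 collagen genes tested, by class, in WT (blue) and *Cfb-/-* (red-brown) diabetic against control mice, with filled points at an adjusted p under 0.05 and dotted lines at the median of all genes. *Col12a1* (3.06) and *Col1a1* (2.76) lie furthest to the right in WT mice at this constant, *Col19a1* (-1.92) was lowest, and *Col4a3* and *Col4a4* lie near or under 0 beside *Col4a1* and *Col4a2* at 1.37 and 1.19.

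Sequences upstream of the members on which these results turn are given 5′ to 3′ on the strand of the gene, as the 150 bases before the RefSeq start site on GRCm38.p6, for *Col1a2*, *Col3a1*, and *Col8a1* among those that rose and for *Col6a6* and *Col19a1*, which fell. The window of *Col1a2* is at chr6:4505468-4505617 (plus strand), that of *Col3a1* at chr1:45311388-45311537 (plus strand), *Col8a1* at chr16:57754738-57754887 (minus strand), *Col6a6* at chr9:105828086-105828235 (minus strand), and *Col19a1* at chr1:24587438-24587587 (minus strand). The RefSeq starts of *Col1a2*, *Col6a6*, and *Col19a1* lie inside the longer gene records of GENCODE. For the type IV genes, which stand head to head in pairs, the bases between or shared by the start sites in the GENCODE M21 annotation are given on the plus strand. *Col4a1* and *Col4a2* share 22 bases at chr8:11312805-11312826, and *Col4a4* and *Col4a3* are 71 bases apart at chr1:82586850-82586920. Capitals mark matches, on either strand, to 3 motifs of general promoter elements. For the CCAAT box, the letters were CCAAT. For the box bound by the TATA-binding protein, the letters searched were TATAAA. For the GC box that is bound by Sp1, the letters searched were GGGCGG, and in a window on the opposite strand these appear as CCGCCC.
Col1a2: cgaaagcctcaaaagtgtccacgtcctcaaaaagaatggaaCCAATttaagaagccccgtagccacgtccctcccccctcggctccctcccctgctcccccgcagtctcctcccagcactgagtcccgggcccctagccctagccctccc
Col3a1: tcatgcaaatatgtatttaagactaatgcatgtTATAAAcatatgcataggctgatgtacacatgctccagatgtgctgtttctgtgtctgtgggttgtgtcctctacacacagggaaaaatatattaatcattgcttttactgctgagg
Col8a1: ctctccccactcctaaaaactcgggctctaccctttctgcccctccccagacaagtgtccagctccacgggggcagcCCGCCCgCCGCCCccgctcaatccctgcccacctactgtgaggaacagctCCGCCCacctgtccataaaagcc
Col6a6: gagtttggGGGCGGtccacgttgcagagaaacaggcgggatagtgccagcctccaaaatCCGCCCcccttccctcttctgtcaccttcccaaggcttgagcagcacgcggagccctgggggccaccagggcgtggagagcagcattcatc
Col19a1: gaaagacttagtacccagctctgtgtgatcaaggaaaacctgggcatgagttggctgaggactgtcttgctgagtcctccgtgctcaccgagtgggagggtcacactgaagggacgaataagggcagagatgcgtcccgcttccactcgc
Col4a1 and Col4a2: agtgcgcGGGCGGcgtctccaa
Col4a4 and Col4a3: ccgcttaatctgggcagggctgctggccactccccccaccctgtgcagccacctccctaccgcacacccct

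Of the 44 collagens, 35 had an entry in the RefSeq table of windows from 250 bases before to 50 bases after the start, and *Col1a1*, *Col4a3*, and *Col12a1* were among those without. GGGCGG was found in 22 of these 35 genes (62.9%), against 38.2% of all 27025 genes with a window. CCAAT was found in 13 (37.1%, against 41.1%) and TATAAA in 5 (14.3%, against 15.7%). Of the 18 collagens higher in both genotypes, 14 had a window, of which 10 held GGGCGG, 6 CCAAT, and 1 (*Col3a1*) TATAAA. A match describes letters in a window of this length and no factor binding was measured.

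The major fibrillar collagens showed the largest rise among the abundant members. *Col1a1* and *Col1a2*, the chains of type I collagen, lie at chr11:94936224-94953042 and chr6:4504814-4541544 (GRCm38, both on the plus strand). *Col1a1* was 2.78, 2.54, and 3.61 FPKM in WT control mice, against 26.8, 17.6, 20.1, and 19.0 FPKM in WT diabetic mice. Among *Cfb-/-* mice it was 2.81, 3.46, and 5.41 FPKM in control and 28.2, 25.5, 14.2, and 20.7 FPKM in diabetic animals. Every diabetic mouse was above every control mouse, and the log2 fold change was 2.76 (SE 0.25, limma adjusted p = 3.76e-06) in WT and 2.49 (SE 0.25, adjusted p = 8.55e-06) in *Cfb-/-* mice. *Col1a2* was 6.80, 6.52, and 7.67 FPKM in WT control mice, against 35.7, 29.7, 29.8, and 30.0 FPKM in WT diabetic mice, a narrow diabetic group apart from its first mouse. It was 6.33, 7.07, and 10.9 FPKM in *Cfb-/-* control and 36.3, 35.6, 20.6, and 32.4 FPKM in *Cfb-/-* diabetic mice, of which the third was lowest. Its log2 fold change was 2.14 (SE 0.20, limma adjusted p = 4.99e-06) in WT and 1.94 (SE 0.20, adjusted p = 1.04e-05) in *Cfb-/-* mice.

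*Col3a1* (chr1:45311538-45349706, plus strand), which encodes the chain of type III collagen that is co-deposited with type I, was 2.92, 3.13, and 3.90 FPKM in WT control mice, against 26.4, 18.9, 17.6, and 19.8 FPKM in WT diabetic mice. The values in *Cfb-/-* mice were 3.37, 3.89, and 5.95 FPKM in control and 26.6, 25.8, 16.4, and 22.5 FPKM in diabetic animals. The groups were well apart, with a log2 fold change of 2.60 (SE 0.21, limma adjusted p = 2.21e-06) in WT and 2.37 (SE 0.21, adjusted p = 4.35e-06) in *Cfb-/-* mice. Type V collagen, which is embedded in type I fibrils and limits their diameter, rose less. *Col5a1* increased from 0.711 ± 0.217 FPKM (SD, n = 3) to 2.06 ± 0.416 FPKM (SD, n = 4) in WT mice and from 0.641 ± 0.128 FPKM to 2.41 ± 0.607 FPKM in *Cfb-/-* mice, and *Col5a2* and *Col5a3* passed the test in both genotypes with log2 fold changes of 0.63 to 1.06. The WT call of *Col5a3* (0.63, limma adjusted p = 0.0414, with overlapping groups) was lost after median-ratio scaling, with the compared groups alone, after quantile normalization, where its sign changed (-0.17), and without any of 8 single mice (WT control 2 or 3, WT diabetic 1, 3, or 4, *Cfb-/-* control 1, *Cfb-/-* diabetic 1 or 3). The *Cfb-/-* call of *Col5a2* was lost after quantile normalization and without *Cfb-/-* control mouse 2. *Col5a2* lies beside *Col3a1* on chromosome 1, in the opposite orientation. In total 6 of 9 fibrillar collagens were higher in WT (36.2% of all genes) and 7 of 9 in *Cfb-/-* diabetic mice (27.4%). In WT and in *Cfb-/-* mice 0 were lower, against 9.97% and 6.4% of all genes. Without *Col11a2* and *Col24a1*, which passed the filter through diabetic mice, 6 of 7 were higher in each genotype. Among all genes taken in the same way, 35.1% and 26.4% were higher. The median log2 fold changes of the 7 were 1.43 and 1.74, against 0.25 and 0.20 for those genes. *Col11a2*, a minor fibrillar chain best known from cartilage, stayed under 0.4 FPKM in every mouse and was called in *Cfb-/-* mice (1.06, SE 0.33, limma adjusted p = 0.0239) while in WT mice its value was 0.60 (SE 0.33, adjusted p = 0.153). Its *Cfb-/-* call was lost after quantile normalization and without *Cfb-/-* diabetic mouse 1 or 2 or any single *Cfb-/-* control mouse. *Col24a1* and *Col27a1* were called in neither genotype, and *Col27a1* varied widely among WT control mice (3.13, 1.80, and 8.27 FPKM).

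The composition of the collagen transcripts shifted with the rise. Summed over the family, collagens were 96.3 to 146 FPKM in WT control and 250 to 335 FPKM in WT diabetic mice, and 137 to 149 FPKM in *Cfb-/-* control and 257 to 350 FPKM in *Cfb-/-* diabetic mice. The share of fibrillar collagens in this sum was 13.9% to 18.2% in WT control mice and 27.8% to 30.7% in WT diabetic mice, and 13.9% to 19.9% and 23.7% to 30.6% in *Cfb-/-* control and diabetic mice. Basement membrane collagens made up 56.5% to 63.0% of the sum in WT control and 42.4% to 44.2% in WT diabetic mice, and 56.6% to 64.8% and 40.6% to 51.0% in *Cfb-/-* mice. Neither share overlapped between diabetic and control mice. *Cfb-/-* diabetic mice 1 and 2 had sums of 345 and 350 FPKM, and the other two had 257 and 273 FPKM.

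**Figure D2:**
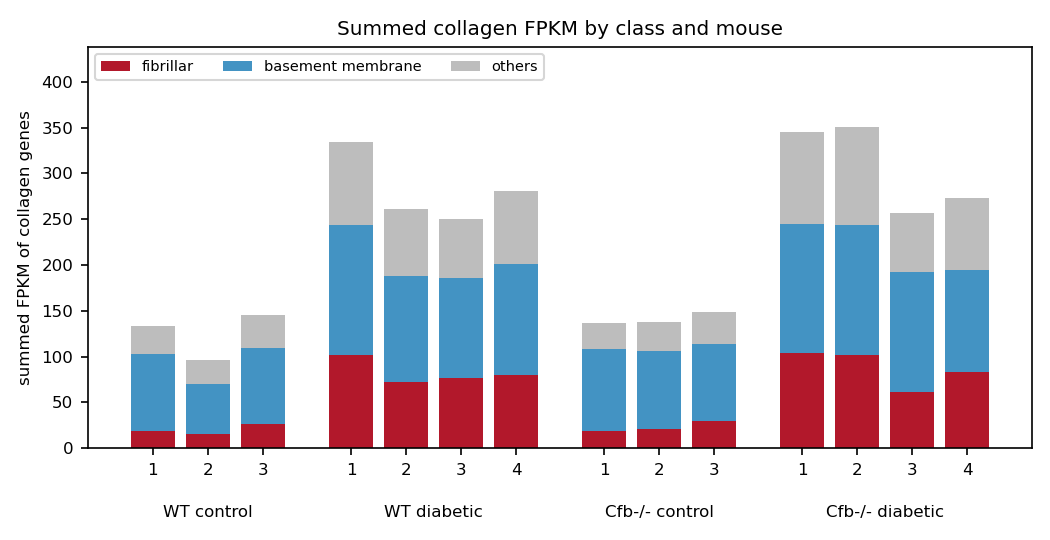
Summed FPKM of the collagen genes in each mouse (bars, with mice numbered within their group), stacked by fibrillar, basement membrane, and other collagens. Every diabetic mouse (250 FPKM or more) is above every control mouse (149 FPKM or less), and the fibrillar section grows from 15.9 to 29.6 FPKM in control mice to 61.0 to 105 FPKM in diabetic mice.

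Fibril-associated collagens moved in both directions. *Col12a1* (chr9:79598991-79718831, minus strand), which is associated with type I fibrils in tissue under tension, was 0.344, 0.242, and 0.428 FPKM in WT control mice, against 4.61, 3.27, 2.97, and 3.31 FPKM in WT diabetic mice. It was 0.601, 0.391, and 0.710 FPKM in *Cfb-/-* control and 4.78, 3.29, 2.35, and 3.85 FPKM in *Cfb-/-* diabetic mice. The lowest diabetic mouse was over 3 times as high as the highest control mouse, and the log2 fold change of *Col12a1* was 3.06 (SE 0.25, limma adjusted p = 2.52e-06) in WT mice, against 2.44 (SE 0.25, adjusted p = 1.11e-05) in *Cfb-/-* mice. With a constant of 1 in place of 0.1, it was 1.75 in WT mice, under the 2.45 of *Col1a1*. *Col14a1*, which occurs with *Col12a1* on fibrils, was 4.38, 2.95, and 5.52 FPKM in WT control and 12.7, 8.72, 7.38, and 6.67 FPKM in WT diabetic mice. For *Cfb-/-* mice it was 2.05, 2.66, and 3.09 FPKM and 8.39, 12.2, 7.80, and 9.62 FPKM, and it rose in both genotypes, by a log2 fold change of 1.03 (SE 0.24, limma adjusted p = 0.00383) and 1.83 (SE 0.24, adjusted p = 7.20e-05). *Col16a1* was called at 0.83 in WT and at 0.59 in *Cfb-/-* mice (limma adjusted p = 0.0448). The *Cfb-/-* call was lost under 13 of 22 alternatives, among them no filter, both scalings, the compared groups alone, a replicate block, and the omission of any *Cfb-/-* control mouse, *Cfb-/-* diabetic mouse 1 or 2, WT diabetic mouse 3 or 4, or WT control mouse 3, and the WT call was lost after quantile normalization.

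*Col19a1* (chr1:24261890-24587472, minus strand), a fibril-associated collagen found at low levels in adult tissue, went the other way. It was 0.387, 0.447, and 0.538 FPKM in WT control mice, against 0.0452, 0.0270, 0.0497, and 0.0664 FPKM in WT diabetic mice. In *Cfb-/-* mice it was 0.777, 0.270, and 0.276 FPKM in control and 0.0447, 0.0445, 0.0506, and 0.0395 FPKM in diabetic animals, so that all diabetic mice lay under all control mice and the first *Cfb-/-* control mouse was far above the other two. The log2 fold change was -1.92 (SE 0.27, limma adjusted p = 9.94e-05) in WT and -1.78 (SE 0.27, adjusted p = 0.000196) in *Cfb-/-* mice. With the constant of 0.1 added before the logarithm, these values understate the difference in FPKM, where the ratio of the diabetic to the control mean was 0.103 and 0.102. *Col6a6* (chr9:105687809-105828160, minus strand), a minor chain of the type VI family, fell likewise. It was 0.289, 0.374, and 0.476 FPKM in WT control and 0.105, 0.0437, 0.0584, and 0.0530 FPKM in WT diabetic mice, and 0.399, 0.635, and 0.357 FPKM in *Cfb-/-* control and 0.104, 0.0687, 0.0871, and 0.0725 FPKM in *Cfb-/-* diabetic mice. Its log2 fold change was -1.53 (SE 0.22, limma adjusted p = 0.00013) in WT and -1.60 (SE 0.22, adjusted p = 0.000109) in *Cfb-/-* mice. *Col19a1* and *Col6a6* had passed the filter through control mice, where they are high, so their calls are not independent of the filter. *Col26a1* was lower in WT mice alone (-0.86, SE 0.21, limma adjusted p = 0.00423, against -0.20, SE 0.21, adjusted p = 0.475 in *Cfb-/-* mice). The share of collagens that were lower, 3 of 34 in each genotype, was close to that of all genes.

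Type VIII collagen, a short-chain collagen that forms a lattice and occurs in vessel walls, rose with the fibrillar group. *Col8a1* (chr16:57624258-57754737, minus strand) was 0.541, 0.305, and 0.778 FPKM in WT control mice, against 4.89, 3.30, 2.79, and 2.72 FPKM in WT diabetic mice. It was 0.681, 0.566, and 0.628 FPKM in *Cfb-/-* control and 4.69, 4.40, 2.93, and 3.56 FPKM in *Cfb-/-* diabetic mice. The log2 fold change was 2.49 (SE 0.26, limma adjusted p = 1.19e-05) in WT and 2.44 (SE 0.26, adjusted p = 1.52e-05) in *Cfb-/-* mice. *Col8a2*, the second type VIII chain, was 0.0849, 0.0703, and 0.10 FPKM in WT control and 0.891, 0.316, 0.334, and 0.361 FPKM in WT diabetic mice, with the first diabetic mouse well above the rest. In *Cfb-/-* mice it was 0.0387, 0.0343, and 0.0268 FPKM in control and 0.748, 0.542, 0.228, and 0.463 FPKM in diabetic animals. All diabetic mice were above all control mice, and the log2 fold change was 1.54 (SE 0.33, limma adjusted p = 0.00205) in WT and 2.08 (SE 0.33, adjusted p = 0.000268) in *Cfb-/-* mice. *Col8a2* had passed the filter through diabetic mice, where it is high, so its calls are not independent of the filter. The ratio of the diabetic to the control mean in FPKM was 5.59 and 14.9, and the *Cfb-/-* value was 0.52 with a constant of 1 and 3.44 with a constant of 0.01.

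**Figure D3:**
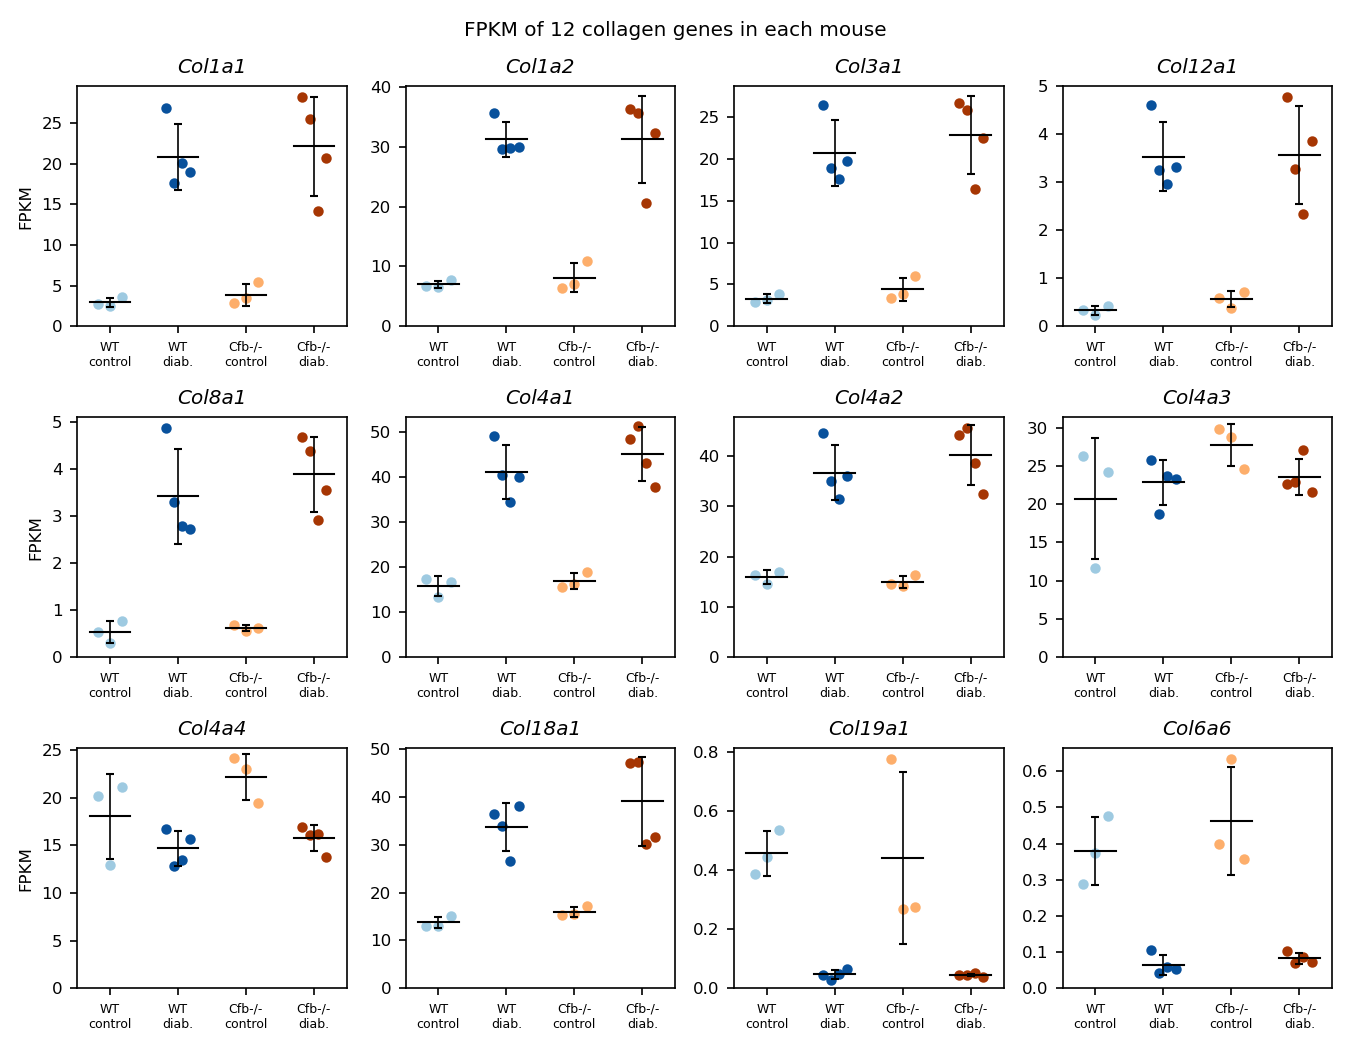
FPKM of 12 collagen genes in each mouse (points), with the mean (line) and SD (bar) of each group. Diabetic mice lie above control mice for *Col1a1*, *Col1a2*, *Col3a1*, *Col12a1*, *Col8a1*, *Col4a1*, *Col4a2*, and *Col18a1* and under them for *Col19a1* and *Col6a6*, whereas *Col4a3* overlaps, with 1 low WT control mouse at 11.6 FPKM, and *Col4a4* overlaps in WT mice.

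The 6 chains of type IV collagen did not move together. In WT mice 4 of 6 were higher and 0 lower in diabetes, against 36.2% and 9.97% of all genes. In *Cfb-/-* mice 2 of 6 were higher and 1 lower, against 27.4% and 6.4%. *Col4a1* was 17.4, 13.3, and 16.8 FPKM in WT control mice, against 49.1, 40.5, 34.5, and 40.0 FPKM in WT diabetic mice. In *Cfb-/-* mice it was 15.6, 16.3, and 18.9 FPKM in control and 48.5, 51.4, 43.1, and 37.8 FPKM in diabetic animals. The groups did not overlap, and the log2 fold change was 1.37 (SE 0.14, limma adjusted p = 1.04e-05) in WT and 1.41 (SE 0.14, adjusted p = 8.55e-06) in *Cfb-/-* mice. *Col4a2*, transcribed away from *Col4a1* across the 22 shared bases shown above, was 16.3, 14.5, and 17.0 FPKM in WT control and 44.5, 34.9, 31.4, and 36.0 FPKM in WT diabetic mice. It was 14.6, 14.1, and 16.3 FPKM in *Cfb-/-* control and 44.0, 45.5, 38.6, and 32.5 FPKM in *Cfb-/-* diabetic mice. It followed its partner closely, with a log2 fold change of 1.19 (SE 0.13, limma adjusted p = 2.03e-05) in WT and 1.40 (SE 0.13, adjusted p = 6.47e-06) in *Cfb-/-* mice, and the ratio of *Col4a1* to *Col4a2* stayed between 0.918 and 1.16 in all 14 mice. Whether the authors' counting used strand is not given in the sources used here, and fragments within the 22 shared bases could be counted for either gene.

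*Col4a3* and *Col4a4*, which encode the α3 and α4 chains, were not higher in diabetes. *Col4a3* (chr1:82586921-82722059, plus strand) was 26.3, 11.6, and 24.2 FPKM in WT control mice, against 25.7, 18.8, 23.6, and 23.3 FPKM in WT diabetic mice. It was 29.8, 28.7, and 24.6 FPKM in *Cfb-/-* control and 22.6, 22.9, 27.1, and 21.6 FPKM in *Cfb-/-* diabetic mice. All ranges overlapped, the second WT control mouse was far under its group, and the log2 fold change was 0.22 (95% confidence interval -0.24 to 0.68, limma adjusted p = 0.418) in WT mice (-0.061 after median-ratio scaling) and -0.23 (-0.70 to 0.23, adjusted p = 0.429) in *Cfb-/-* mice. *Col4a4* (chr1:82448423-82586849, minus strand) was 20.1, 12.9, and 21.1 FPKM in WT control and 16.7, 12.9, 13.5, and 15.6 FPKM in WT diabetic mice. It was 24.1, 23.0, and 19.4 FPKM in *Cfb-/-* control and 16.9, 16.1, 16.2, and 13.8 FPKM in *Cfb-/-* diabetic mice, where every diabetic value lay under every control value. Its log2 fold change was -0.27 (SE 0.16, limma adjusted p = 0.168) in WT and -0.49 (SE 0.16, adjusted p = 0.0267) in *Cfb-/-* mice. Without WT control mouse 2, *Col4a3* was -0.15 and *Col4a4* -0.49 (limma adjusted p = 0.0109) in WT mice, and after median-ratio scaling *Col4a4* was -0.55 (adjusted p = 0.00409). The call of *Col4a4* in *Cfb-/-* mice was lost without *Cfb-/-* diabetic mouse 4 and without *Cfb-/-* control mouse 1 or 2 (-0.43, -0.43, and -0.46). Of the podocyte markers, 3 of 6 were higher in WT (36.2% of all genes) and 6 of 6 in *Cfb-/-* diabetic mice (27.4%), and 0 were lower. Their summed level was 47.4 to 93.0 FPKM in WT control, 83.0 to 146 FPKM in WT diabetic, 58.8 to 77.5 FPKM in *Cfb-/-* control, and 99.7 to 154 FPKM in *Cfb-/-* diabetic mice, and their part in the values of *Col4a3* and *Col4a4* was not tested.

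Ratios between type IV transcripts within a mouse differed between diabetic and control mice. The ratio of *Col4a1* to *Col4a3* was 0.663 to 1.14 in WT control and 1.46 to 2.16 in WT diabetic mice, and 0.524 to 0.767 in *Cfb-/-* control and 1.59 to 2.24 in *Cfb-/-* diabetic mice. The ratio of *Col4a2* to *Col4a4* was 0.808 to 1.12 and 2.30 to 2.72 in WT mice, and 0.606 to 0.840 and 2.36 to 2.84 in *Cfb-/-* mice. The highest control value of each ratio was that of WT control mouse 2. Both ratios were higher in diabetic mice in an exact two-sided permutation test that exchanged labels within genotype, with a p of 0.000816, the smallest that the 1225 relabellings allow (0.00147 after Benjamini-Hochberg adjustment over the 9 ratios computed). All 9 ratios were chosen with the values known, so their p-values do not test differences set in advance. The 2 pairs above each joined 1 member that rose and 1 that did not. *Col4a3* also ran ahead of *Col4a4*, with a ratio of 0.899 to 1.31 in control and 1.34 to 1.76 in diabetic mice (exact permutation p of 0.000816). The ratio of *Col4a1* to *Col4a2* had an exact permutation p of 0.0424 (0.0478 adjusted). Its log2 difference between diabetic and control mice was 0.18 in WT and 0.003 in *Cfb-/-* mice. The ratio of *Col1a2* to *Col1a1*, which together make up the type I molecule, was 2.12 to 2.57 in WT control and 1.33 to 1.69 in WT diabetic mice. It was 2.01 to 2.25 in *Cfb-/-* control and 1.29 to 1.56 in *Cfb-/-* diabetic mice, again with an exact permutation p of 0.000816. The ratio of *Col6a1* to *Col6a2* was 1.81 to 2.35 over all mice and did not differ (exact permutation p = 0.822).

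**Figure D4:**
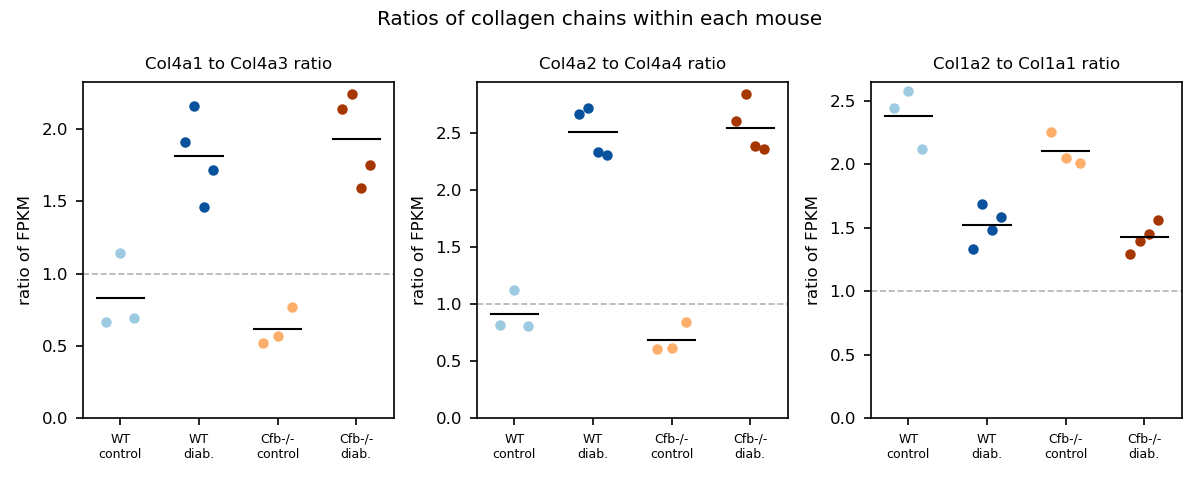
Ratio of FPKM between collagen chains within each mouse (points, with the group mean as a line) for *Col4a1* to *Col4a3*, *Col4a2* to *Col4a4*, and *Col1a2* to *Col1a1*, with the dashed line at equal levels. Diabetic mice lie above control mice in the first and second panels (lowest 1.46 and 2.30, against highest 1.14 and 1.12) and under them in the third (highest 1.69, against lowest 2.01).

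*Col4a5* and *Col4a6*, which stand head to head on the X chromosome with 1308 bases between their starts, were raised in WT mice. *Col4a5*, the partner of α3 and α4, was 3.58, 1.94, and 3.37 FPKM in WT control and 5.45, 6.99, 5.25, and 6.05 FPKM in WT diabetic mice. It was 4.51, 3.38, and 4.52 FPKM in *Cfb-/-* control and 7.54, 5.61, 5.56, and 5.30 FPKM in *Cfb-/-* diabetic mice. Diabetic and control mice did not overlap in either genotype, with a log2 fold change of 1.02 (SE 0.20, limma adjusted p = 0.00118) in WT and 0.52 (SE 0.20, adjusted p = 0.0574) in *Cfb-/-* mice. *Col4a6*, which is found in Bowman's capsule and some tubular basement membranes, was 0.163, 0.112, and 0.18 FPKM in WT control and 0.499, 1.19, 0.750, and 0.591 FPKM in WT diabetic mice. It was 0.276, 0.20, and 0.495 FPKM in *Cfb-/-* control and 0.746, 0.788, 0.382, and 0.531 FPKM in *Cfb-/-* diabetic mice, with 1 control mouse among the diabetic values. Its log2 fold change was 1.71 (SE 0.31, limma adjusted p = 0.00055) in WT and 0.77 (SE 0.31, adjusted p = 0.0668) in *Cfb-/-* mice. Under the omission of single mice the *Cfb-/-* call of *Col4a6* was gained without *Cfb-/-* control mouse 3 (1.04), *Cfb-/-* diabetic mouse 3 (0.94), or WT diabetic mouse 2 (0.77), and that of *Col4a5* without WT control mouse 1 or 2.

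The multiplexins *Col15a1* and *Col18a1*, proteoglycan collagens of the basement membrane zone whose C-terminal fragments include endostatin, rose in both genotypes. *Col18a1* (chr10:77052178-77166548, minus strand) was 13.1, 13.0, and 15.2 FPKM in WT control mice, against 36.4, 33.9, 26.7, and 38.1 FPKM in WT diabetic mice. It was 15.3, 15.6, and 17.1 FPKM in *Cfb-/-* control and 47.0, 47.3, 30.2, and 31.7 FPKM in *Cfb-/-* diabetic mice, the latter in a higher and a lower pair (mice 1 and 2 against mice 3 and 4). Its log2 fold change was 1.28 (SE 0.17, limma adjusted p = 5.58e-05) in WT and 1.25 (SE 0.17, adjusted p = 6.96e-05) in *Cfb-/-* mice. *Col15a1* was 2.88, 1.88, and 3.06 FPKM in WT control and 9.78, 6.43, 5.66, and 9.56 FPKM in WT diabetic mice. It was 2.31, 2.19, and 2.93 FPKM in *Cfb-/-* control and 11.9, 11.3, 6.93, and 8.49 FPKM in *Cfb-/-* diabetic mice. No diabetic mouse overlapped a control mouse, and the log2 fold change was 1.55 (SE 0.24, limma adjusted p = 0.000197) and 1.90 (SE 0.24, adjusted p = 4.85e-05).

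Type VI collagen forms beaded filaments near the surface of many cells, and its 3 main chains rose. *Col6a1* was 2.89, 2.27, and 3.71 FPKM in WT control and 8.48, 7.77, 6.91, and 8.14 FPKM in WT diabetic mice. It was 2.12, 3.01, and 3.28 FPKM in *Cfb-/-* control and 9.03, 11.0, 5.30, and 9.0 FPKM in *Cfb-/-* diabetic mice. The log2 fold change was 1.40 (SE 0.23, limma adjusted p = 0.00028) in WT and 1.56 (SE 0.23, adjusted p = 0.000143) in *Cfb-/-* mice, without overlap of groups. *Col6a2*, its neighbour on chromosome 10, was 1.35, 1.20, and 1.70 FPKM in WT control and 4.69, 3.51, 3.29, and 3.77 FPKM in WT diabetic mice. It was 0.904, 1.36, and 1.77 FPKM in *Cfb-/-* control and 4.16, 5.07, 2.82, and 4.17 FPKM in *Cfb-/-* diabetic mice, and rose by 1.37 and 1.54 (SE 0.23 in each). *Col6a3* was 1.39, 0.693, and 2.05 FPKM in WT control and 3.23, 2.80, 2.69, and 2.26 FPKM in WT diabetic mice. It was 1.16, 1.32, and 1.48 FPKM in *Cfb-/-* control and 2.95, 4.53, 2.12, and 2.75 FPKM in *Cfb-/-* diabetic mice, with a log2 fold change of 1.05 (SE 0.29, limma adjusted p = 0.0103) and 1.12 (SE 0.29, adjusted p = 0.00871). Without WT control mouse 2, which was lowest for *Col6a3*, the WT value was 0.66 (limma adjusted p = 0.0639).

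The remaining collagens were low. *Col23a1*, a transmembrane collagen, was 0.349, 0.434, and 0.0785 FPKM in WT control mice, against 0.425, 0.458, 1.08, and 0.603 FPKM in WT diabetic mice, and its ranges overlapped although it was called (1.0, SE 0.37, limma adjusted p = 0.0374). The call was lost with no filter, under both scalings, with the compared groups alone or a replicate block, and without WT diabetic mouse 3 or 4 or WT control mouse 3. The third WT control mouse was far under the other two. *Col6a5*, a minor type VI chain, stayed at or under 0.239 FPKM and was called in *Cfb-/-* mice (1.01, SE 0.28, limma adjusted p = 0.0136) but not in WT mice (0.67, SE 0.28, adjusted p = 0.0649), with diabetic mice above control mice in both. It had passed the filter through diabetic mice. Of those called in neither genotype, *Col7a1*, the anchoring fibril collagen of skin, was at 0.53 and 0.65, *Col9a3* at 0.66 and 0.54, *Col20a1* at 0.46 and 0.61, and *Col13a1* at 0.01 and 0.25 on the log2 scale, and each overlapped between diabetic and control mice.

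No collagen differed detectably between genotypes. Between *Cfb-/-* diabetic and WT diabetic mice, 0 of 34 collagens were called by limma, and 0 had an unadjusted p under 0.05, against 0.00671% of all genes called and 3% at the unadjusted threshold. For the 8 collagens with a mean of at least 10 FPKM, every 95% confidence interval of the log2 difference lay between -0.43 and 0.55, and for 32 of 34 it lay between -1 and 1. *Col1a1* differed by 0.06 (95% confidence interval -0.43 to 0.55), *Col3a1* by 0.14 (-0.28 to 0.55), *Col1a2* by -0.03 (-0.42 to 0.36), *Col4a1* by 0.14 (-0.14 to 0.42), and *Col4a3* by 0.05 (-0.38 to 0.48). The differences furthest from 0 among collagens with a mean of at least 0.5 FPKM were those of *Col5a2*, *Col15a1*, and *Col5a1*. *Col5a2* was 3.89, 2.35, 2.39, and 3.64 FPKM in WT diabetic and 4.65, 4.90, 3.46, and 2.97 FPKM in *Cfb-/-* diabetic mice, with a difference of 0.38 (-0.09 to 0.85). *Col15a1*, with the values given above, differed by 0.30 (-0.17 to 0.78), and *Col5a1*, at 2.65, 1.94, 2.01, and 1.67 FPKM and 2.78, 3.03, 1.71, and 2.11 FPKM, by 0.20 (-0.27 to 0.67). The groups overlapped in all 34 collagens, while 1.86% of all genes were higher and 0.885% lower in *Cfb-/-* diabetic mice without overlap. Differences within these intervals were not detectable with 4 mice in each group.

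In control mice 0 of 34 collagens were called between genotypes by limma (0.00671% of all genes), and 6 had an unadjusted p under 0.05, where 17.5% of all genes did. These were *Col14a1*, lower in *Cfb-/-* mice, and *Col12a1*, *Col5a2*, *Col4a3*, *Col4a5*, and *Col4a6*, higher in *Cfb-/-* mice. *Col14a1* and *Col12a1*, with the values given above, overlapped between genotypes and differed by -0.67 (95% confidence interval -1.23 to -0.12, limma adjusted p = 0.25) and 0.60 (0.02 to 1.17, adjusted p = 0.276). *Col5a2* was 1.57, 1.09, and 1.55 FPKM in WT control and 2.15, 1.66, and 2.61 FPKM in *Cfb-/-* control mice, without overlap, and differed by 0.57 (0.03 to 1.11, limma adjusted p = 0.270). The groups did not overlap for 4 collagens that were higher (*Col16a1*, *Col18a1*, *Col4a6*, and *Col5a2*) and 2 that were lower (*Col8a2* and *Col13a1*) in *Cfb-/-* mice, against 6.67% and 7.12% of all genes. For the type IV chains the low values of WT control mouse 2 entered these differences, and the ranges of *Col4a3* and *Col4a5* overlapped between genotypes.

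**Figure D5:**
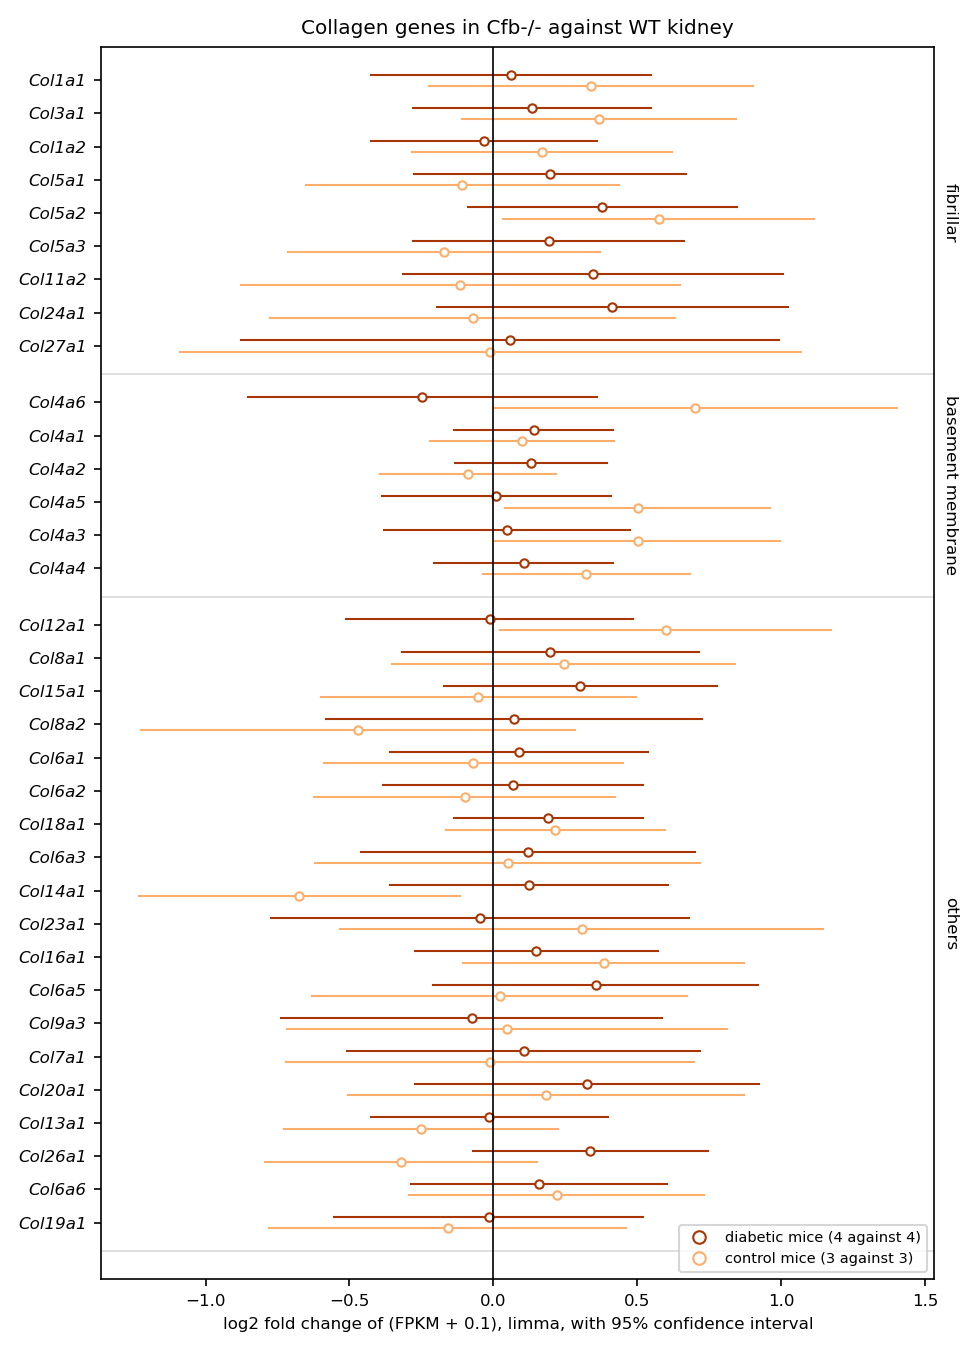
Log2 difference between *Cfb-/-* and WT mice with its 95% confidence interval (limma on FPKM + 0.1) for the 34 collagen genes tested, in diabetic mice (dark, 4 against 4) and control mice (light, 3 against 3). Every interval in diabetic mice crosses 0. In control mice 6 of 34 exclude 0 without passing adjustment, where 17.5% of all genes had an unadjusted limma p under 0.05.

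Whether the response to diabetes depended on genotype was tested as the interaction in the same fit. By limma 0 of 34 collagens were called, against 0% of all genes, with a smallest adjusted p of 0.779. At an unadjusted p under 0.05 there were 3 of 34, against 5.77% of all genes, namely *Col14a1* at 0.80 (95% confidence interval 0.06 to 1.53), *Col26a1* at 0.66 (0.03 to 1.28), and *Col4a6* at -0.95 (-1.87 to -0.02). For *Col14a1* the *Cfb-/-* values were lower among control mice (-0.67) and close to those of WT mice among diabetic mice (0.12). Collagens called in 1 genotype alone are therefore not shown to differ between genotypes.

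Genes that act on collagen were examined as 4 lists. Of 13 procollagen processing and cross-linking genes tested, 10 were higher and 0 lower in diabetes in each genotype, where 36.2% of all genes were higher in WT and 27.4% in *Cfb-/-* mice. *Lox*, which oxidizes lysine residues before cross-linking, rose by 2.29 in WT (SE 0.20) and 2.14 in *Cfb-/-* mice (SE 0.20) on the log2 scale, and *Adamts2*, which removes the N-propeptide of fibrillar collagens, by 1.99 and 1.70 (SE 0.26 in each). *Pcolce2* and *Loxl1*, an enhancer of procollagen processing and a second lysyl oxidase, had the lowest rises called in WT mice, 0.73 and 0.80. Of 18 genes for hydroxylation and folding, 8 were higher and 2 lower in WT and 6 were higher and 0 lower in *Cfb-/-* mice, shares near those of all genes (36.2% and 27.4% higher). *Fkbp10*, a collagen chaperone, rose by 1.40 and 1.66 and *P3h4* by 1.32 and 0.71. *Crtap* and *P4hb*, the latter a subunit of prolyl 4-hydroxylase, fell by 0.34 and 0.31 in WT mice and were at -0.26 and -0.23 in *Cfb-/-* mice, where neither was called.

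Among collagen receptors 8 of 9 were higher in WT and 7 of 9 in *Cfb-/-* diabetic mice, against 36.2% and 27.4% of all genes, and 0 were lower. *Lair1*, an inhibitory receptor of leukocytes, rose by 1.85 and 1.92, the ubiquitous integrin chain *Itgb1* by 0.90 and 0.60, and the receptor tyrosine kinase *Ddr1* by 0.48 and 0.54. *Itga2* rose by 1.61 in WT mice and was at 0.71 in *Cfb-/-* mice (limma adjusted p = 0.195). Among 7 degradation genes, 3 were higher and 1 lower in each genotype, against 36.2% higher and 9.97% lower of all genes in WT and 27.4% and 6.4% in *Cfb-/-* mice. The gelatinase *Mmp2* rose from a mean of 0.827 to 10.4 FPKM in WT mice and from 0.689 to 13.2 FPKM in *Cfb-/-* mice, with log2 fold changes of 3.49 and 4.03 (SE 0.29 in each). *Mmp14*, its membrane-bound activator, rose by 1.89 and 2.52 and the lysosomal collagenase *Ctsk* by 1.84 and 2.10, whereas *Pepd*, a dipeptidase that recycles proline, fell by 0.75 and 0.66. Between genotypes 0 genes of the 4 lists were called by limma in diabetic or in control mice (0.00671% of all genes in each). In diabetic mice 1 gene, of the 13 processing genes, had an unadjusted p under 0.05, against 3% of all genes. In control mice 5 of 18 hydroxylation and folding genes, 1 of 13 processing genes, 1 of 9 receptors, and 0 of 7 degradation genes did. Of all genes, 17.5% did.

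Markers of several cell types changed in the same mice, and their part in the collagen changes was not tested. Of all genes, 36.2% were higher in WT and 27.4% in *Cfb-/-* diabetic mice. Fibroblast and pericyte markers were higher in 7 of 8 genes in WT and 6 of 8 in *Cfb-/-* diabetic mice, with a summed level of 28.7 to 37.0 FPKM in WT control, 83.3 to 99.2 FPKM in WT diabetic, 31.7 to 46.5 FPKM in *Cfb-/-* control, and 59.2 to 101 FPKM in *Cfb-/-* diabetic mice. Myofibroblast and smooth muscle markers were higher in 5 of 5 and 2 of 5 genes (28.7 to 40.3 FPKM, 64.3 to 93.5 FPKM, 37.9 to 43.3 FPKM, and 57.6 to 84.0 FPKM in the same order). Macrophage markers were higher in 5 of 5 and 4 of 5 genes, endothelial markers in 4 of 6 and 5 of 6, mesangial markers in 2 of 3 and 2 of 3, T and B cell markers in 5 of 5 and 3 of 5, and injured tubule markers in 5 of 5 and 5 of 5. Urothelial markers (8 of 8) and adipocyte markers (5 of 5) were higher in WT diabetic mice, where urothelial markers summed to 1.01 to 54.4 FPKM, and 0 of 8 and 1 of 5 were higher in *Cfb-/-* diabetic mice. Urothelial markers in *Cfb-/-* diabetic mice summed to 1.60 to 4.41 FPKM. No list had a member at 0 in all mice. Of the tubule markers used to check the tissue, 2 were higher and 2 lower in WT and 0 were higher and 3 lower in *Cfb-/-* diabetic mice.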

How the data were processed

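RNA of kidney from 14 mice was sequenced in pairs of reads from a stranded mRNA library. The deposited files hold 1 table of FPKM for each mouse, which the authors made with Trimmomatic, HISAT2, Cufflinks, HTSeq, and DESeq on GRCm38.p6 (tools and build as listed in the submitters' processing notes, without versions). Because FPKM keep the absolute depth unknown, no counting intervals were given. Depth relative to the deepest library was 0.839 to 1.

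Genes at 0.1 FPKM or more in at least 3 mice were tested as log2(FPKM + 0.1) with limma 3.58.1 (R 4.3.3), with a mean-variance trend, a mean for each of the 4 groups of all 14 mice, and Benjamini-Hochberg adjustment over 14912 genes. Groups followed the sample titles. The labels name separate mice, without litter or batch, so the p-values measure the spread between these mice. Ratios between chains were tested with an exact permutation test (Python 3.11.15, scipy 1.17.1) and were chosen after the values were seen. The fit and the permutation test were tested on simulated data. Alternatives were no filter, at least 1 FPKM in 3 mice, other constants (1 and 0.01), median-ratio scaling, quantile normalization, the compared groups alone, a replicate block, and the omission of each mouse.

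Values by mouse were given for the chains of types I, III, and IV, the main chains of type VI, the multiplexins, and the 6 collagens furthest from 0 at an adjusted p under 0.05 in each diabetes comparison. In the comparisons of genotype they were given for the 3 furthest from 0 among collagens with a mean of at least 0.5 FPKM. Of the lists, the 2 highest and 2 lowest called genes in WT mice were named. Other collagens with values were added after their values were seen. The collagens, lists, and tests were chosen with earlier results of these data known. Gene positions are from GENCODE M21 and promoter sequences from RefSeq, both on GRCm38.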

Additional observations from a re-analysis of the deposited data

Results flagged for a closer look

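The highest and lowest mouse of each diabetic group was compared with the rest of its group by Dixon's test for 21 collagens, 42 groups in all, and 3 stood out, where chance alone marks about 1 in 20 groups. *Col1a2* was 35.7 FPKM in WT diabetic mouse 1, against 29.7 to 30.0 FPKM in the other WT diabetic mice, and *Col8a2* was 0.891 FPKM in the same mouse, against 0.316 to 0.361 FPKM. *Col4a5* was 7.54 FPKM in *Cfb-/-* diabetic mouse 1, against 5.30 to 5.61 FPKM in the others. WT diabetic mouse 1 had the highest value of its group in 25 of the 34 collagens tested.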

How the results depend on the processing

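The number of collagens called stayed within 1.5 times that of the analysis reported under all alternatives that were run (WT 22 to 27 and *Cfb-/-* 20 to 24 when single mice were omitted, 17 to 25 and 17 to 23 under the other settings), and 0 were called in each genotype comparison and in the interaction under every one. Of the collagens called, 20 of 24 in WT and 16 of 23 in *Cfb-/-* mice were never lost under an alternative that tested them. Those tested under all 22 were 17 in each genotype, of which 15 and 13 were called in every one. The sign of *Col4a3* in WT mice (0.22) changed after median-ratio scaling (-0.061) and ranged from -0.15 to 0.43 when single mice were omitted (-0.15 without WT control mouse 2), none of them called, and the cause was not tested. *Col6a3* was no longer called after quantile normalization (0.48 in WT and 0.64 for *Cfb-/-*). With median-ratio scaling, quantile normalization, and a constant of 1, the median log2 fold change in WT mice was 0.79, 0.52, and 0.74 for fibrillar, 0.82, 0.78, and 0.71 for basement membrane, and 0.76, 0.24, and 0.43 for other collagens (reported analysis 1.06, 1.10, and 1.0). For *Cfb-/-* it was 0.93, 0.46, and 0.66 for fibrillar, 0.43, 0.14, and 0.36 for basement membrane, and 0.89, 0.44, and 0.42 for other collagens (1.06, 0.65, and 1.01). Same-numbered mice did not deviate together (correlations of -0.388 to 0.243), and with the replicate number as a block 23 collagens were called in WT and 22 in *Cfb-/-* mice. Absolute depth is unknown, so the counting error of the low collagens could not be computed.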
